A study of Mus musculus with 6 samples.

Results

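The genes described here encode the subunits, assembly chaperones, activators and inhibitor of the proteasome in mouse intestinal tissue with colitis. They were chosen by symbol: protein-coding genes named Psma, Psmb, Psmc, Psmd, Psme, Psmf or Psmg with a number, without the inducible immunoproteasome genes Psmb8, Psmb9 and Psmb10. This gave 47 genes of the 55335 in the deposited table, and 45 of them had enough counts to be tested, within the 14107 genes tested in all. One of the 47, Psmc3ip, shares the name but encodes a meiotic recombination factor and no proteasome protein. RNA-seq was performed on wild-type (WT) and Trmt6-/- mice, 3 animals of each, and all 6 animals had colitis induced by dextran sulfate sodium (DSS), which injures the intestinal lining. Trmt6 encodes a subunit of a tRNA methyltransferase. The strain, age and sex of the mice, how the Trmt6 allele was made, the DSS dose and the intestinal segment are not given in the sources used here, and no untreated animals were analysed here.

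The proteasome is the large protease complex that degrades ubiquitin-tagged proteins in the cytosol and nucleus. Its barrel, the 20S core particle, is built of outer alpha rings that gate entry and inner beta rings that hold the protease sites, and the 19S regulatory particle on its end recognises, unfolds and feeds in the substrate. Cells make the subunits in matched amounts, and when proteasome activity falls the transcription factor NRF1, encoded by Nfe2l1, raises the subunit genes together. Interferon-gamma induces alternative catalytic subunits (the immunoproteasome) and the PA28 activator, which favour the production of peptides for antigen presentation.

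Because members of the complex are known for shared promoter elements, the windows from 250 bases before to 50 bases after the annotated start were searched on both strands for 4 short motifs. RefSeq windows (GRCm38.p6) were held for 39 of the 47 genes, and the following stretches of 30 bases, written 5′ to 3′ on the strand of the gene, show 9 of the matches in capitals, some of them read from the opposite strand. The first 4 carry the antioxidant response element core TGACNNNGC, the element bound by NRF1 and NRF2, in Psmb5 (chr14:54618023-54618052, minus strand), Psmb6 (chr11:70525338-70525367, plus strand), Psmc6 (chr14:45329587-45329616, plus strand) and Psmd9 (chr5:123228149-123228178, plus strand). They are shown because they include 2 of the 3 constitutive catalytic subunits.
Psmb5: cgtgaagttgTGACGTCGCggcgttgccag
Psmb6: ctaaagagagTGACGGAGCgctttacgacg
Psmc6: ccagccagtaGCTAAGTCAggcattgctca
Psmd9: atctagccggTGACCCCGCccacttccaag
The next 3 carry the ETS-type element CCGGAAGT, common at promoters of housekeeping genes, in Psmc1 (chr12:100110162-100110191, plus strand), Psmd6 (chr14:14120972-14121001, minus strand) and Psme4 (chr11:30771711-30771740, plus strand).
Psmc1: ttggtggatgcACTTCCGGcggtggcgatt
Psmd6: cagagacgcgaCCGGAAGTcagactggcgg
Psme4: gtggccccgccCCGGAAGTgacttgaggcc
The last pair carries the interferon-stimulated response element core (GAAA, any 2 bases, GAAA, here on the reverse strand) in Psme1 (chr14:55578493-55578522, plus strand), the interferon-inducible PA28 alpha gene, and Psmd4 (chr3:95042675-95042704, minus strand), the gene of a ubiquitin receptor.
Psme1: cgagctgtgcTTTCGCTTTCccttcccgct
Psmd4: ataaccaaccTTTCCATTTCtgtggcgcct

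A gene was counted once if any of its windows held a match, so shares depend on how many starts are annotated. The antioxidant response element core was found in 6 of the 39 genes (15.4%). It was found in 14% of all 27025 genes with a window and in 16.9% of the 10375 tested here. Psmd12 and Psme4 were the other two matches. The ETS-type element was found in 9 of 39 (23.1%), against 4.31% of all genes with a window and 8.97% of those tested. Besides Psmc1, Psmd6 and Psme4 the matches lay in Psma6, Psmc2, Psmd12, Psmd13, Psmg3 and Psme3. The interferon-stimulated core was found in 5 of 39 (12.8%), against 3.99% and 3.7%, with Psmb3, Psmd9 and Psmg4 beside the genes shown. A STAT-type palindrome, TTCNNNGAA, was found in Psmd2 and Psmg1 alone (5.13% of genes, against 9.55% and 8.33%). The antioxidant, ETS-type and interferon motifs do not overlap in Psmd9, Psmd12 or Psme4, which hold 2 kinds each. These are matches of letters in fixed windows and not measured binding sites. Psmb7, Psmb1, Psmb2, Psma8, Psmc3, Psmd3, Psmd7 and Psmg2 had no window.

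The deposited table names the libraries KO72, KO73 and KO75 (label Trmt6-/-) and WT185, WT186 and WT187 (label WT), each from a separate mouse per the design text, and values of single libraries are given below in that order. Total counts ran from 15213972 to 16972758, and the 31 core subunit genes described below took between 37192 and 59169 of them; the spread given is that between mice. Values are TMM-normalised CPM (read counts scaled to library size), as mean ± SD over 3 libraries with the group labelled Trmt6-/- first, and log2 fold changes are estimate ± SE from the quasi-likelihood test of edgeR, with positive values for higher levels under the Trmt6-/- label. Trmt6 itself was not lower under its label, with 39.8, 34.2 and 36.2 CPM against 30.9, 18.7 and 23.1 CPM in WT (log2 fold change 0.60 ± 0.21, edgeR adjusted p = 0.335). The group is therefore called the libraries labelled Trmt6-/-, and each direction rests on the labels. Markers of absorptive enterocytes (6 genes, summed level 13319 to 32240 CPM) and goblet cells (5 genes, 7550 to 14399 CPM) were abundant in every library, while 6 neutrophil genes summed to at most 8.54 CPM. Paneth cell markers (4 genes) were uneven, at 6619, 3498 and 4489 CPM under the Trmt6-/- label and 7778.5, 941 and 2947 CPM in WT. Little signal came from fibroblast genes (6, at most 8.38 CPM) or smooth muscle genes (5, at most 2.37 CPM). Within each group the libraries were unequal in regional markers: 4 ileal genes summed to 832, 641 and 179 CPM under the Trmt6-/- label and to 813, 59.8 and 35.6 CPM in WT, and 4 proximal genes to 501, 2170 and 3728 CPM and to 1427, 6102 and 3575 CPM. The mean log2 CPM of the ileal minus that of the proximal genes was 0.59, -1.02 and -3.25 under the Trmt6-/- label. In WT it was -1.47, -6.82 and -5.64, and the groups overlapped in KO75 and WT185. Ileal Slc51b was higher under the Trmt6-/- label without overlap (log2 fold change 1.01), where 9.7% of all genes tested were. Proximal Gata4 was lower without overlap (-0.89), where 9.03% were. The other ileal genes overlapped, at 0.19 (Fabp6), 1.73 (Slc10a2) and 0.25 (Fgf15). So did the other proximal genes, at -2.07 (Lct), -2.60 (Cybrd1) and 0.21 (Fabp1). None of these genes passed the threshold.

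The genes of the assembled 26S proteasome, 14 of the 20S core and 17 of the 19S particle, were expressed at close to the same level in both groups. Their summed level was 2856 ± 287 CPM in the libraries labelled Trmt6-/- and 2901 ± 171 CPM in WT. The individual log2 fold changes ran from -0.37 (Psma1) to 0.26 (Psmd14), with 16 of 31 above 0, 15 below and a median of 0.01, beside a median of -0.03 over all genes tested. Psmd2, a large scaffold of the 19S base, was the core gene with the highest level in CPM, at 202 ± 16.8 against 200.2 ± 24.2 CPM, and per kb of exon Psma6, an alpha ring gene, was the highest at 77.3 CPM per kb averaged over the 6 libraries.

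None of the 45 tested members passed the threshold of 0.05 with p adjusted by Benjamini-Hochberg over all genes (edgeR), where 0.0425% of all genes did, and the lowest adjusted p of a member was 0.396 (Psma1). At an unadjusted p under 0.05 there was 1 member, Psma1, among 12.1% of all genes, so the members' share was below that of all genes. DESeq2 also called 0 members, where it called 4.49% of all genes, and had 1, Psma1, at an unadjusted p under 0.05, where 13.9% of all genes were. Limma-voom called 0 members and 0 genes in all (0%), and again had Psma1 alone among the members at an unadjusted p under 0.05, where 11.7% of all genes were. The CPM of the groups did not overlap for 1 member that was higher under the Trmt6-/- label, Psmd14, where 9.7% of all genes tested showed that pattern. They did not overlap for 2 that were lower, Psma1 and Psmd4, where 9.03% of all genes did.

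The intervals of these differences were narrow for the core genes. The 95% interval of the edgeR log2 fold change lay within 2-fold in either direction for 31 of 31 core subunits and for 40 of 45 members, where it did for 50.2% of all genes tested. It lay within 1.5-fold for 27 of 31 core subunits and 32 of 45 members, where it did for 19.6% of all genes tested. Interval width falls with expression level, and among the 3677 tested genes in the CPM range of the core subunits (44.1 to 201 CPM) 2877 lay within 2-fold and 1508 within 1.5-fold. The core genes also varied little between mice of one group: the median SD of log2 CPM within groups was 0.146 for the 31 core genes, 0.225 for the 3677 genes of the same range and 0.322 for all genes tested. The 4 core genes whose interval passed 1.5-fold were Psma1, Psma4, Psmb5 and Psmd3. The 5 members whose interval passed 2-fold were Psmg2, Psmg4, Psme2, Psme2b and Psmc3ip.

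**Figure D1:**
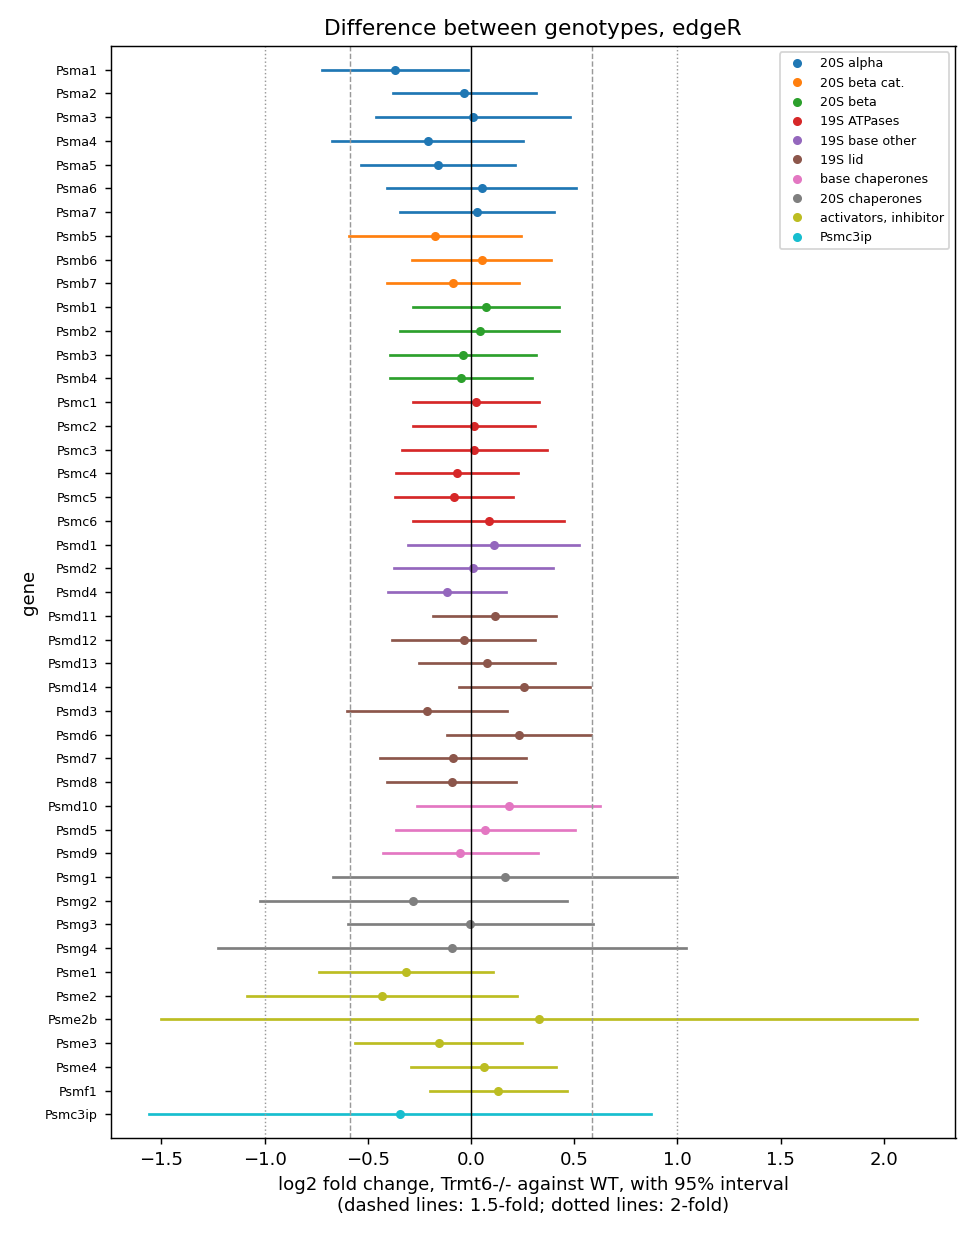
Log2 fold change of each of the 45 tested members between the libraries labelled Trmt6-/- and WT (x axis, edgeR estimate as a point, 95% interval as a line; 3 libraries per group), with genes on the y axis coloured by subcomplex. The dashed lines mark 1.5-fold and the dotted lines 2-fold, and the intervals of all 31 core subunits, Psma1 to Psmd8, lie between the dotted lines.

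The 7 alpha ring genes encode the outer rings of the core particle, whose ends form the gate. Their median log2 fold change was -0.03, with 3 above 0 and 4 below. Psma1 (ENSMUSG00000030751.18; GRCm38 chromosome 7, 114264606 to 114276118, minus strand) stood at 94.3, 81.8 and 107.5 CPM under the Trmt6-/- label and 122, 127 and 116 CPM in WT. All 3 libraries labelled Trmt6-/- were below all WT libraries, a difference of -0.37 ± 0.15 on the log2 scale with a 95% interval from -0.72 to -0.01 (edgeR, adjusted p = 0.396), which did not pass the test. Psma4, the alpha ring gene with the highest CPM, stood at 109, 94.0 and 143 CPM under the Trmt6-/- label and 122, 151 and 127 CPM in WT, and the groups overlapped (-0.21 ± 0.20; -0.08 without KO73, -0.10 without WT186 and -0.39 without KO75). Psma2, Psma3, Psma5, Psma6 and Psma7 had log2 fold changes from -0.16 (Psma5) to 0.05 (Psma6), none with a p below the threshold. Psma3 showed how far mice of one group could lie apart, at 94.2, 82.2 and 131 CPM under the Trmt6-/- label but 102, 108.5 and 94.8 CPM in WT. Psma8, the alpha subunit of testis proteasomes, had 0 counts in every library, where 3 counts, the limit a count of 0 allows for counting error alone, would be 0.156 to 0.213 CPM.

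The beta rings hold the protease sites. Psmb5 encodes the chymotrypsin-like subunit and stood at 47.5, 39.2 and 37.8 CPM under the Trmt6-/- label and 54.9, 39.4 and 46.0 CPM in WT. Psmb6, the caspase-like subunit, reached 68.7, 73.3 and 81.6 CPM against 74.3, 77.8 and 63.6 CPM. Psmb7, the trypsin-like subunit, was measured at 49.8 ± 4.80 against 52.8 ± 3.17 CPM. The groups overlapped for all 3 catalytic genes, with log2 fold changes of -0.17 ± 0.18, 0.05 ± 0.14 and -0.09 ± 0.13 in that order (edgeR, lowest adjusted p = 0.776). The value of Psmb5 was -0.018 without WT185 and -0.45 with the regional index of ileal against proximal genes as a covariate, and from -0.28 to -0.11 with another library left out. The 4 structural beta genes, Psmb1, Psmb2, Psmb3 and Psmb4, lay between -0.05 and 0.07. Psmb4 had the highest CPM of them, at 118, 116 and 144 CPM under the Trmt6-/- label and 130, 131 and 130 CPM in WT. Psmb1 reached 127, 111 and 137 CPM against 130, 111 and 116 CPM, again with overlapping groups. Psmb11, the catalytic subunit of thymic cortical epithelium, had 0 counts in every library.

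The 19S base contains a ring of 6 ATPases that unfold the substrate. Their log2 fold changes ran from -0.08 (Psmc5) to 0.09 (Psmc6), and the 95% intervals of all 6 lay within 1.5-fold. Psmc6, the ATPase gene with the largest difference, had 94.1, 82.4 and 110.5 CPM under the Trmt6-/- label and 96.1, 90.9 and 83.4 CPM in WT. Psmc3, the ATPase gene with the highest CPM, reached 101, 99.5 and 114 CPM against 116.5, 92.2 and 102 CPM. Psmc2 was measured at 74.4 ± 2.36 against 73.6 ± 5.56 CPM. In the rest of the base, Psmd1 and Psmd2 encode the large scaffolds that dock ubiquitin-carrying shuttle proteins, and Psmd4 encodes a ubiquitin receptor. Psmd2 stood at 212, 182 and 211 CPM under the Trmt6-/- label and 228, 185.5 and 187 CPM in WT. Psmd4 (GRCm38 chromosome 3, 95032694 to 95042614, minus strand) reached 75.9, 74.2 and 73.5 CPM against 78.2, 86.4 and 77.7 CPM. Its groups did not overlap, but the gap between them was small and the difference of -0.12 ± 0.12 did not pass the test (edgeR, adjusted p = 0.781; -0.05 without WT186).

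The 19S lid holds the deubiquitinase Psmd14, which removes the ubiquitin chain before the substrate enters the core, together with its partner Psmd7 and 6 scaffold subunits. Psmd14 (GRCm38 chromosome 2, 61711694 to 61800376, plus strand) stood at 77.8, 69.5 and 86.0 CPM under the Trmt6-/- label and 67.7, 63.7 and 63.7 CPM in WT. All 3 libraries labelled Trmt6-/- were above all WT libraries, by 0.26 ± 0.13 on the log2 scale with a 95% interval from -0.06 to 0.57 (edgeR, adjusted p = 0.521), which did not pass the test. Psmd3, the lid gene with the highest CPM, reached 138, 132 and 142 CPM against 185, 158 and 134.5 CPM, with WT185 the highest of the 6 (-0.21 ± 0.16; -0.07 without WT185 and -0.34 without WT187). Psmd6, Psmd7, Psmd8, Psmd11, Psmd12 and Psmd13 ranged from -0.09 (Psmd8) to 0.23 (Psmd6) and all had overlapping groups.

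**Figure D2:**
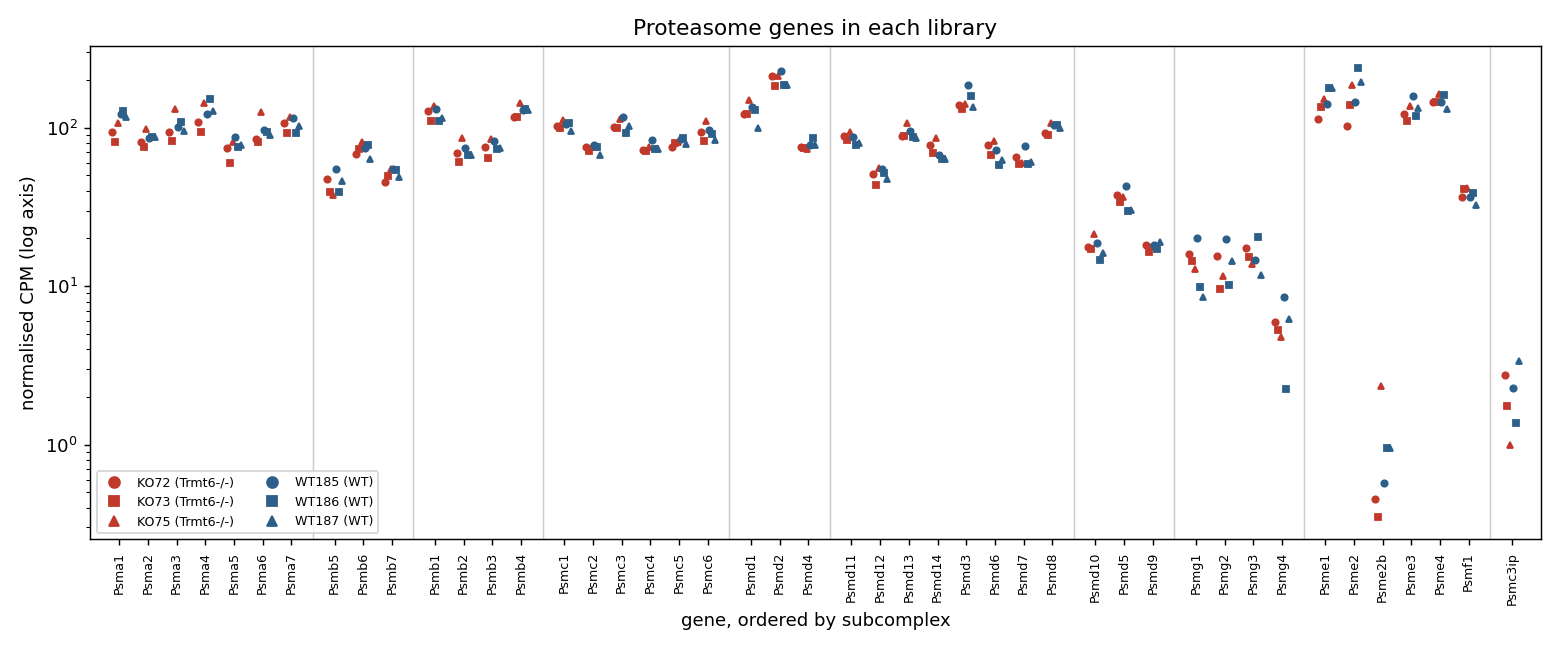
CPM of the 45 tested members in each of the 6 libraries (y axis, log scale), with genes on the x axis ordered by subcomplex and vertical lines between subcomplexes; red symbols are the libraries labelled Trmt6-/- and blue symbols WT. Core subunits lie within a narrow band of means, 44.1 to 201 CPM, and the chaperones, Psmf1, Psme2b and Psmc3ip below it.

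The balance between the constitutive genes of the particles was also close. The sum of CPM per kb of exon over the 14 core particle genes divided by that over the 17 regulatory particle genes was 1.09, 1.03 and 1.20 under the Trmt6-/- label and 1.13, 1.17 and 1.19 in WT, or 1.11 ± 0.0878 against 1.16 ± 0.0328. The groups overlapped. Exon length is the union over all annotated transcripts, so levels per kb understate genes with rarely used exons. Psmb8, Psmb9 and Psmb10, the inducible counterparts of the catalytic genes, are not in the core particle sum. They stood at 10.6, 8.26 and 77.5 CPM per kb under the Trmt6-/- label and 28.4, 23.3 and 117 in WT. A ratio with them included was not computed.

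The spread that the core genes shared lay between mice of one group. With each gene centred on its own mean over the 6 libraries, the median log2 deviation of the 31 core genes was -0.03 in KO72, -0.14 in KO73 and 0.15 in KO75, all labelled Trmt6-/-, and 0.08 in WT185, 0.01 in WT186 and -0.06 in WT187. KO75 had the highest value of the 6 libraries for 18 of the 31 genes and KO73 the lowest for 16. The alpha ring showed it most, at -0.29 in KO73 and 0.21 in KO75, and all 4 structural beta genes were lowest in KO73 and highest in KO75. The median log2 fold change of the core genes was 0.05 without KO73 and -0.10 without KO75, and 0 members passed the threshold in either fit. T and NK cell markers (12 genes) summed to 137, 360 and 1109 CPM under the Trmt6-/- label and to 384, 561 and 1456 CPM in WT. KO75, the highest of its group in these markers, had the highest core subunit sum of the 6 libraries (3165 CPM), and WT187, the highest of WT, had the lowest core subunit sum of WT (2743 CPM). Their part in the shared shift was not tested. In bulk tissue, fewer cells of a type and less RNA per cell cannot be told apart.

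**Figure D3:**
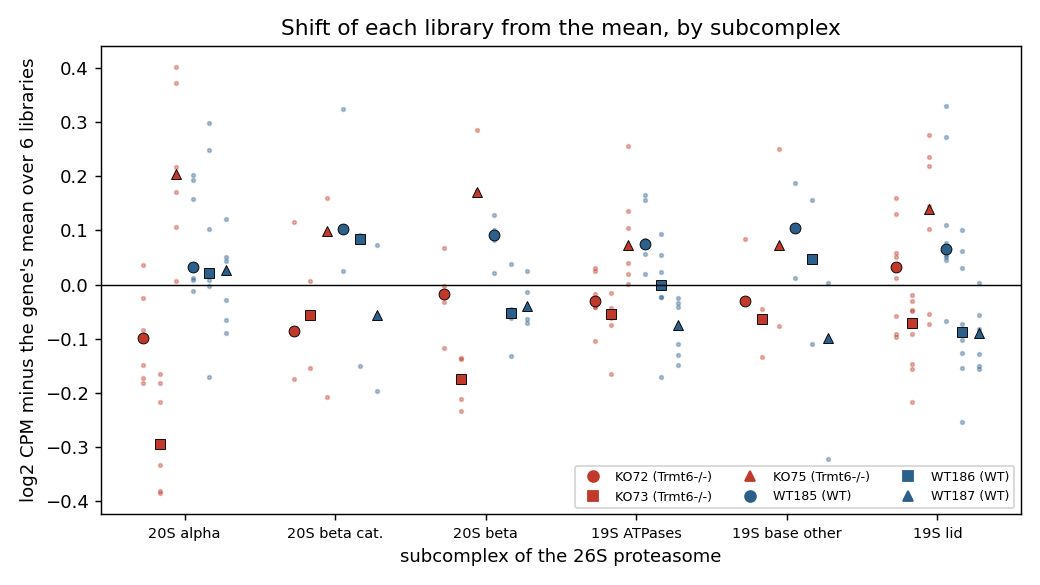
Deviation of each core gene from its own mean over the 6 libraries (y axis, log2 CPM with a pseudocount of 0.5) by subcomplex (x axis); small dots are genes, large symbols are the median of a library, red for libraries labelled Trmt6-/- and blue for WT. In the alpha ring the medians of KO73 (-0.29) and KO75 (0.21), both labelled Trmt6-/-, lie farther apart than those of any WT libraries.

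Assembly chaperones build the complex but are not part of the finished particle. The 7 chaperone genes among the members had means over the 6 libraries of at most 35.2 CPM, below all 31 core subunits. Of the base chaperones, Psmd5 had the highest CPM, at 37.5, 33.9 and 36.8 CPM under the Trmt6-/- label and 42.9, 30.02 and 30.1 CPM in WT. Psmd10, which encodes gankyrin, reached 17.6, 17.2 and 21.3 CPM against 18.7, 14.6 and 16.1 CPM (0.18 ± 0.19; 0.09 without KO75, 0.11 without WT186 and 0.31 without WT185), and Psmd9 at 17.4 ± 0.808 against 18.0 ± 0.914 CPM. The groups overlapped for all 3. The chaperones of the core particle, Psmg1 to Psmg4, had means over the 6 libraries between 5.50 and 15.6 CPM and wider intervals. Psmg2 reached 15.6, 9.64 and 11.5 CPM against 19.96, 10.2 and 14.5 CPM (-0.28 ± 0.31, edgeR adjusted p = 0.8). Psmg3 reached 17.4, 15.4 and 13.9 CPM against 14.5, 20.4 and 11.8 CPM. Here 1 library stood out: WT185 had the highest value of the 6 for 3 of the 4 genes, Psmg1, Psmg2 and Psmg4. Without WT185 the log2 fold change of Psmg2 was 0.01, and the median of the 4 genes moved from -0.05 to 0.19. Psmg1 went from 0.16 ± 0.35 to 0.67 ± 0.24 (edgeR, adjusted p = 0.289). It was the 1 member at an unadjusted p under 0.05 in that fit, where 14.5% of all genes were.

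The activators cap the core particle in place of, or beside, the regulatory particle, and Psmf1 encodes the inhibitor-like protein PI31. Psme1 and Psme2, the interferon-inducible PA28 alpha and beta genes on GRCm38 chromosome 14 (55578123 to 55581529, plus strand, and 55587441 to 55591113, minus strand), had the lowest log2 fold changes of the group. Psme2 stood at 102, 139.5 and 186 CPM under the Trmt6-/- label and 146, 237 and 193 CPM in WT (-0.43 ± 0.28, edgeR adjusted p = 0.615). Psme1, named after its values were seen, reached 113, 134.5 and 152.5 CPM against 142, 178 and 178 CPM (-0.31 ± 0.18, edgeR adjusted p = 0.565). Both genes were lowest in KO72 and overlapped between the groups in KO75 and WT185, and neither passed the test. With the regional index of ileal against proximal genes as a covariate the log2 fold changes were 0.08 for Psme2 and -0.04 for Psme1. Single libraries moved them as well: Psme2 was -0.23 without KO72, -0.23 without WT186 and -0.66 without KO75, and Psme1 was -0.20 without KO72. Psme3, a nuclear PA28 relative, stood at 123 ± 13.6 against 137 ± 20.6 CPM (log2 fold change -0.16 ± 0.17). Psme4, which encodes PA200, was at 151 ± 10.4 against 145 ± 14.7 CPM (0.06 ± 0.15), and Psmf1 at 39.6 ± 2.76 against 36.1 ± 3.16 CPM (0.13 ± 0.14). Psme2b, a near copy of Psme2, had 5 to 33 counts per library, and its log2 fold change of 0.33 ± 0.77 is uncertain. Reads that fit both genes alike were not counted, so the counts of Psme2 may be too low as well. Psmc3ip, the meiotic factor caught by the symbol rule, reached 2.77, 1.75 and 0.996 CPM against 2.29, 1.36 and 3.36 CPM.

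The 3 immunoproteasome genes outside the rule gave a contrast of levels. Psmb8, Psmb9 and Psmb10, the inducible counterparts of Psmb5, Psmb6 and Psmb7, had log2 fold changes of -1.42 ± 0.39, -1.49 ± 0.32 and -0.59 ± 0.25 (edgeR, adjusted p = 0.25, 0.18 and 0.426), none past the threshold. The groups did not overlap for Psmb8 and Psmb9, which were lower, where 9.03% of all genes tested showed that pattern. They overlapped for Psmb10. The ratio of Psmb9 to Psmb6 was 0.289, 0.422 and 0.489 under the Trmt6-/- label and 0.790, 1.41 and 1.37 in WT, without overlap (exact permutation test, two-sided, p = 0.1, the smallest that 3 against 3 can give; 0.2 adjusted over 3 ratios). The ratios of Psmb8 to Psmb5 (0.904 ± 0.440 against 2.16 ± 0.938) and of Psmb10 to Psmb7 (2.62 ± 0.512 against 3.79 ± 0.791) overlapped (exact permutation test, p = 0.2 for each). All 3 ratios are of counts, without correction for exon length, so they compare libraries and not the genes of a pair. Per kb of exon the WT means were 28.4 against 52.0 CPM (Psmb8, Psmb5), 23.3 against 38.4 (Psmb9, Psmb6) and 117 against 15.4 (Psmb10, Psmb7). A list of 12 other interferon-gamma response genes summed to 848, 1328 and 1493 CPM under the Trmt6-/- label and to 1359, 2839 and 2511 CPM in WT. The part of that response, of lymphocytes and of intestinal position in the values of Psme1, Psme2 and the immunoproteasome genes was not tested.

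**Figure D4:**
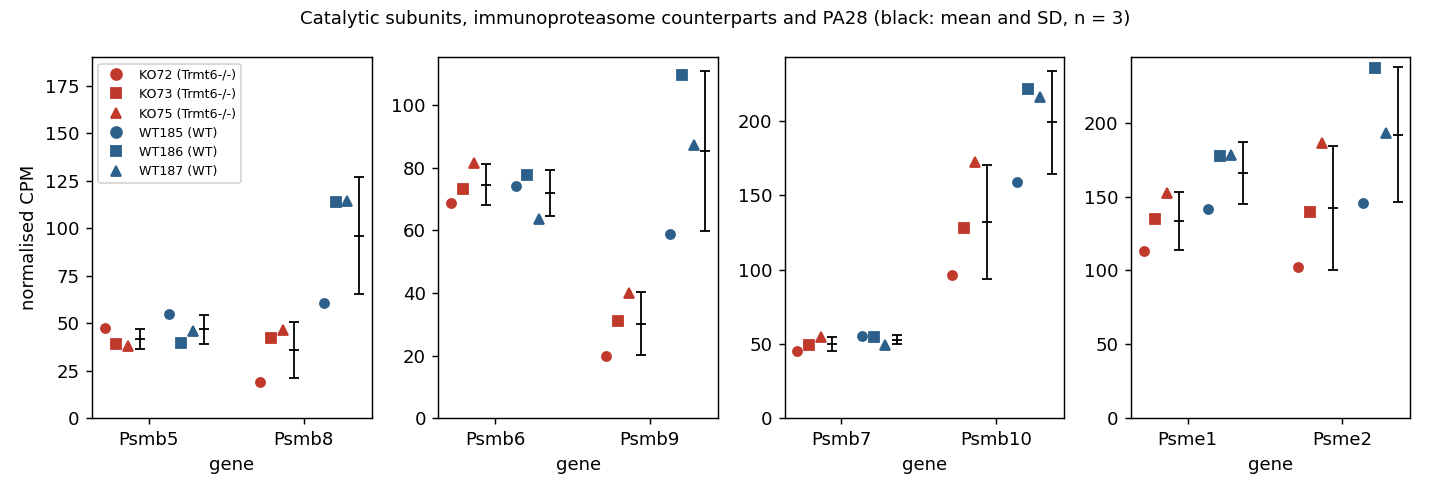
CPM (y axis, from 0) of each constitutive catalytic subunit beside its immunoproteasome counterpart in 3 panels, and of Psme1 and Psme2 in the fourth panel (x axis, genes); points are libraries and black bars mean ± SD of 3. Psmb5, Psmb6, Psmb7, Psmb10, Psme1 and Psme2 overlap between the groups. For Psmb8 and Psmb9 the 3 libraries labelled Trmt6-/- lie below the 3 WT libraries, as for 9.03% of all genes tested.

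Genes that work with the proteasome but carry other symbols were read from lists chosen by function. Of 13 further subunits and partners, all tested, 0 passed the threshold, where 0.0425% of all genes tested did, and the median log2 fold change was -0.05. Akirin2, which carries proteasomes into the nucleus, stood at 36.7, 32.4 and 32.8 CPM under the Trmt6-/- label and 40.4, 42.5 and 44.7 CPM in WT (-0.32 ± 0.13, edgeR adjusted p = 0.397). Midn, whose product delivers nuclear proteins without ubiquitin, had the highest CPM of that list, at 185, 272 and 212 CPM and at 119, 184 and 232 CPM. Akirin2 therefore lay without overlap, like 1 other gene of that list on the lower side, Fbxo7, a ubiquitin ligase component, while Midn overlapped. Over all genes tested, 9.03% lay without overlap on the lower side. The subunits and chaperone outside the symbol rule, Adrm1, Sem1 and Pomp, had log2 fold changes of 0.11, -0.05 and -0.03.

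Of 8 genes that control proteasome gene transcription, 0 passed the threshold, where 0.0425% of all genes tested did. The groups did not overlap for 2 that were lower, where 9.03% of all genes did, and 1 that was higher, where 9.7% did. Nfe2l2, which encodes NRF2, the regulator of oxidative stress genes, stood at 181, 174 and 203 CPM under the Trmt6-/- label and 274, 500 and 366 CPM in WT. Its groups did not overlap, and its log2 fold change of -1.03 ± 0.25 did not pass the test (edgeR, adjusted p = 0.205). Maff, a small partner of these factors, was measured at 19.5, 14.7 and 12.2 CPM and at 9.69, 9.55 and 11.4 CPM (0.60 ± 0.24, edgeR adjusted p = 0.391). Nfe2l1 reached 133, 130 and 107 CPM against 124, 115 and 114 CPM, with a log2 fold change of 0.07 ± 0.14 and overlapping groups. Ddi2, the protease that activates NRF1, had 135, 164 and 177 CPM under the Trmt6-/- label and 192, 315 and 191 CPM in WT, without overlap (-0.55 ± 0.25, edgeR adjusted p = 0.445). Among the core genes whose windows hold the antioxidant response element core, Psmb5, Psmb6, Psmc6 and Psmd12 had log2 fold changes of -0.17, 0.05, 0.09 and -0.04. Those letters were found in 15.4% of the members with a window and in 16.9% of the genes tested. They do not mark bound targets, and a link to the level of Nfe2l2 was not tested.

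Earlier steps of the pathway held no gene past the threshold either. Only 0.0425% of all genes tested passed it, so a count of 0 says little for lists of this size. Of 6 ubiquitin and ubiquitin-activating enzyme genes 0 passed the threshold (median -0.04), with the polyubiquitin gene Ubb at 460, 604 and 578 CPM under the Trmt6-/- label and 475, 651 and 627 CPM in WT. Of 11 shuttle and extraction factors 0 passed (median -0.06), with Vcp, the segregase that pulls ubiquitylated proteins from complexes, at 366, 367 and 448 CPM and at 438, 432 and 360 CPM. In the interferon-gamma list 10 of 12 genes were tested and 0 passed, but all 10 were below 0, with a median of -0.86. Ciita, the regulator of class II genes, had the smallest p of that list, at 13.4, 30.5 and 30.7 CPM against 49.9, 113 and 111 CPM (-1.87 ± 0.43, edgeR adjusted p = 0.195), and Tap1, the peptide transporter gene, followed at 36.5, 70.1 and 83.2 CPM against 91.9, 178 and 198 CPM (-1.30 ± 0.39, edgeR adjusted p = 0.275). Irf1, an interferon-induced transcription factor, had -0.60 ± 0.25 (edgeR adjusted p = 0.408), and B2m, the invariant class I chain, had the highest CPM, at 523, 807 and 956 CPM against 809, 1944 and 1512 CPM with overlapping groups.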

How the data were processed

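The authors deposited raw counts, made per the file headers with featureCounts 2.0.1 from read pairs on GENCODE M23 exons, summed by gene. The header sets neither strandedness nor multimapping nor overlap, so reads on exons of several genes or from near copies were not counted, and sense and antisense reads were counted together. This touches Psma4, Psma5, Psmb5, Psmb7, Psmc3, Psmd1, Psmd3, Psmd13, Psmg3, Psme1, Psme2b and Psmc3ip, which share up to 21.2% of their exon bases with other genes. The submitters' processing notes name fastp, HISAT2 and mm10. RNA was extracted with a ZYMO kit and made into amplified cDNA libraries with the Vazyme TD503 kit, per the labels' protocols. The deposited gene length column (unit: other) served for levels per kb. Column names give group and animal number, and libraries were assigned to groups by name.

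GENCODE M21, on the same assembly, supplied the symbols (55154 of 55335 identifiers matched). The pattern found 51 genes, of which 4 pseudogenes were left out. After filterByExpr and TMM scaling, counts were tested with the two-sided quasi-likelihood test of edgeR 4.0.16 (R 4.3.3) with genotype as the only term and Benjamini-Hochberg adjustment over all genes tested. The biological coefficient of variation was 0.345. Pearson correlations of log2 CPM were 0.939 to 0.978 within groups and 0.915 to 0.966 between groups, and chi-square per degree of freedom within groups was at least 48.6, so no library was a duplicate. Values per library are given for members at an unadjusted p under 0.05 or with groups that do not overlap, and for the highest and most changed member of each subcomplex; from other lists for up to 3 genes with the smallest p and the highest. Psme1, Psmg1, Psma3, Ddi2, Fbxo7, Adrm1, Sem1, Pomp and Nfe2l1 were named after their values were seen. Members and lists were chosen with earlier results of these data known. Paaf1, AI314180 and Ufd1l matched no symbol. Alternatives were RLE, upper-quartile and total scaling, DESeq2 1.42.0, limma-voom (limma 3.58.1), no filter, 1 CPM in 3 libraries, a regional and a leukocyte index as covariates, and each library left out.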

Additional observations from a re-analysis of the deposited data

How the results depend on the processing

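Under all 15 alternatives 0 of the tested members passed the adjusted threshold. Genes called over all numbered 6 with edgeR, 633 with DESeq2, 159 without the low-count filter, 15 with the leukocyte index, 0 with limma-voom, library totals or the regional index, and 0 to 6 with 1 library left out. Members at an unadjusted p under 0.05 numbered 1 (Psma1) in the main fit, where 12.1% of all genes tested were. With library totals there were 3 (with Psme1 and Psme2), where 12.1% of all genes were. With the regional index there were 2 (Psmb5 and Psmg2), where 20.8% of all genes were. Upper-quartile scaling, no filter and the leukocyte index gave 0, where 12.3%, 8.39% and 12.7% of all genes were. With 1 library left out there were 0 to 1, where 7.14% to 14.5% of all genes were. Library totals moved the median of all genes from -0.03 to -0.11 and that of the ATPases to -0.064, and gave Psmb6 -0.023, Psmb1 -0.0094, Psmc3 -0.071, Psmd2 -0.068 and Psmd5 -0.018. With the regional index the medians were -0.082 for base scaffolds, -0.076 for base chaperones, -0.51 for core chaperones, 0.11 for activators and -0.94 for Psmc3ip. It turned Psma4 to 0.016, Psmb4 to 0.041, Psmc3 to -0.057, Psmd2 to -0.11, Psmd5 to -0.15, Psmg1 to -0.34, Psmg3 to 0.047 and Psme2 to 0.083. The leukocyte index turned Psmb4 to 0.0030 and Psmd2 to -0.013, and Psmg3 was 0.026 with upper-quartile scaling, 0.051 with limma-voom and 0.0024 without the filter. With 1 library left out, the medians ran from -0.052 to 0.14 for base scaffolds, -0.031 to 0.28 for base chaperones and -0.33 to 0.033 for activators. Single genes ran from -0.042 to 0.12 (Psmb6), -0.15 to 0.0077 (Psmb4), -0.051 to 0.13 (Psmc3), -0.028 to 0.18 (Psmc6), -0.052 to 0.14 (Psmd2), -0.035 to 0.28 (Psmd5), -0.49 to 0.014 (Psmg2), -0.082 to 0.67 (Psmg1), -0.66 to -0.23 (Psme2), -0.41 to -0.20 (Psme1), -0.76 to -0.015 (Psmc3ip) and -0.18 to 0.25 (Psmg3). The cause of these changes was not tested. Psma1 stayed between -0.47 and -0.27, Psmd14 between 0.18 and 0.33 and Psmd4 between -0.18 and -0.05 in every alternative. No paired analysis was possible because the library columns carry animal numbers and no replicate numbers. With 3 mice per group an exact test cannot go below 0.1, and the intervals limit the core genes to differences under 2-fold, not to none.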
